A study of Sus scrofa with 24 samples.

Results

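The potassium channel genes of the oxyntic mucosa, the acid-secreting lining of the stomach, were followed in 24 piglets. They were all genes whose symbol in the annotation of the array starts with KCN, with the exception of KCNE2, KCNJ13 and KCNJ15, and they were 59 of the 10882 genes of the table. Each piglet was measured with 1 Affymetrix Porcine Gene 1.1 ST array, and a gene was read from its brightest transcript cluster, the group of probes that stands for a transcript. The groups were CA MCT, CA CON, SA MCT and SA CON, with 6 piglets in each. All piglets were a (Great York × Pietrain) × 'Dalland' cross, were delivered by caesarean section, were artificially fed and were 3 weeks of age. All of them had pasteurized sow colostrum and a starter of Lactobacillus amylovorus, Clostridium glycolicum and Parabacteroides. CA piglets (complex association) were then given diluted faeces of an adult sow, and SA piglets (simple association) a placebo. After the first days on milk replacer, MCT piglets had a moist diet with coconut oil, rich in medium chain triglycerides, and CON piglets the same diet with other vegetable oil. The labels placed the associations in separate rooms, whereas the methods of the study describe pens or rooms that held piglets of every group, so it is unclear whether room and association can be told apart. The litters of several sows were balanced over the groups, but the labels tied no piglet to a litter, pen or sex.

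Potassium channels let potassium leave or enter a cell along its gradient and set the membrane voltage. In the parietal cell they have a further task, since the H+/K+ ATPase exchanges potassium from the gland lumen for protons, and channels of the apical membrane must return that potassium to the lumen for acid secretion to go on. KCNQ1 with its subunit KCNE2 is the channel best known for this. Potassium channels also include the voltage gated pores of nerve and muscle, inward rectifiers, 2-pore leak channels, pores opened by calcium or sodium, and auxiliary subunits that do not conduct by themselves. KCNQ1, KCNJ10 and KCNJ16 were not analysed here. A whole piece of mucosa was used for each array, so that fewer cells of a type and less RNA per cell cannot be told apart.

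The defining genes of the tissue were bright on all arrays: the mean intensity of the pump subunits was 3560 for ATP4A and 2673 for ATP4B, and that of gastric intrinsic factor (GIF) 1347, against an upper quartile of 129.8 over all genes. The summed intensity of the 7 measured of 10 parietal cell markers was 8642 to 9956 (median 9799) in CA MCT and 8423 to 10065 (9560) in CA CON. It was 9358 to 10638 (9552) in SA MCT and 7937 to 10709 (9977) in SA CON, and the lowest value was that of pig 18. The 7 were ATP4A, ATP4B, GIF, SLC26A7, SLC9A4, HRH2 and AQP4, and the sum mostly follows the brightest of them. For CA as compared to SA on CON, their log2 differences ran from -0.60 to 0.08. There, 1 of the 7 had an unadjusted p under 0.05 (limma, 14.3%, as compared to 4.25% of all genes), and none an adjusted p under 0.05. Among the arrays, those of pig 4 (CA CON), pig 10 (CA MCT) and pig 22 (SA MCT) stood apart, with median correlations with the other arrays of 0.960, 0.981 and 0.985, as compared to 0.988 to 0.994 for the remaining 21. The precision of every mean was limited by the 6 piglets per group, and littermates could not be taken into account.

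Most potassium channel genes were dim. The mean intensity of the 59 genes over the 24 piglets had a median of 14.3 and ran from 4.25 to 131.7, whereas the median over all genes was 38.8. Of the 59 genes, 46 lay below that median, 23 lay below the lower quartile of 10.8, and 1, KCNK10, lay above the upper quartile. Probes differ in how strongly they bind, so that these intensities describe how bright a gene was on this array and give no order of RNA amounts between genes.

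**Figure D1:**
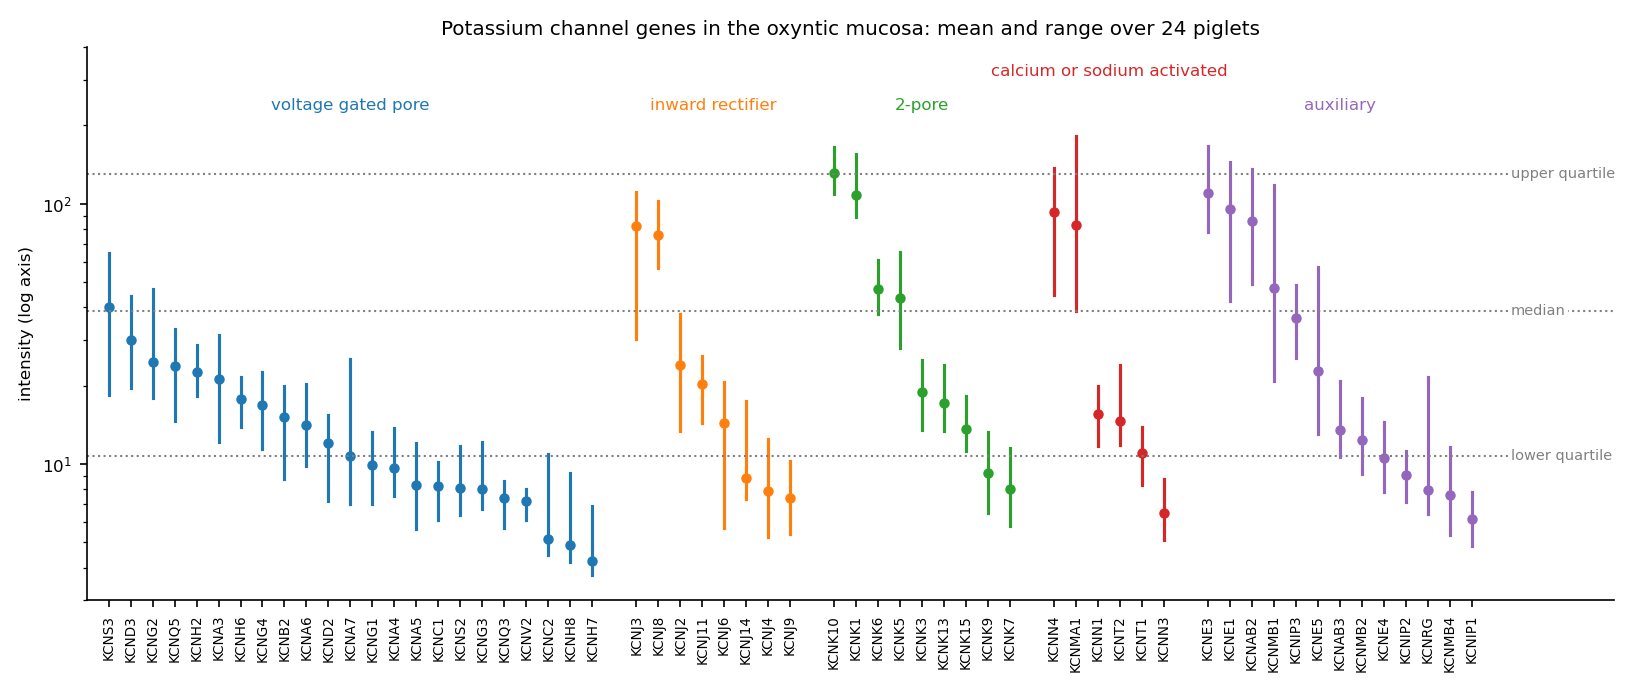
Mean intensity (log axis, arbitrary units) of the 59 potassium channel genes over 24 piglets (genes along the horizontal axis, by family); points are means and lines run from the lowest to the highest piglet. Dotted horizontal lines mark the lower quartile (10.8), the median (38.8) and the upper quartile (129.8) of all 10882 genes, and 46 of the 59 means lie under the line of the median.

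The 23 genes of the voltage gated families, grouped by symbol prefix, were the dimmest group on the array. Most of them encode pores that open when the membrane depolarizes, while KCNG1, KCNG2, KCNG3, KCNG4, KCNS2, KCNS3 and KCNV2 are silent subunits that conduct only together with pores of the KCNB type. Their median intensity was 10.7, with 22 of 23 below the median of all genes and 12 below the lower quartile. They comprised KCNA3, KCNA4, KCNA5, KCNA6, KCNA7, KCNB2, KCNC1, KCNC2, KCND2, KCND3, KCNG1, KCNG2, KCNG3, KCNG4, KCNH2, KCNH6, KCNH7, KCNH8, KCNQ3, KCNQ5, KCNS2, KCNS3 and KCNV2. The exception above the median was the silent subunit KCNS3, with a mean of 39.98. Its range was 18.4 in pig 4 to 64.9 in pig 5, both of the CA CON group. KCNH2, the pore of the hERG current of heart and smooth muscle, had a mean of 22.6 and stayed between 18.3 and 28.6 in all piglets. KCNH7, the dimmest of all 59 genes, had a mean of 4.25.

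The 6 genes of the calcium or sodium activated channels had a median of 15.1. KCNN4, the intermediate conductance calcium activated channel of epithelia and lymphocytes, had a mean of 93.3. KCNMA1, the pore of the large conductance BK channel, had a mean of 82.6 and reached from 38.8 in pig 10 to 181 in pig 14. The remaining members were the small conductance channel KCNN1 (mean 15.5), KCNN3 (6.48), and the sodium activated KCNT1 (11.1) and KCNT2 (14.6).

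Among the 9 leak channels of the 2-pore type (KCNK1, KCNK3, KCNK5, KCNK6, KCNK7, KCNK9, KCNK10, KCNK13 and KCNK15) the median was 18.9, and 4 lay above the median of all genes. KCNK10 (TREK-2), a leak channel that responds to stretch and lipids, was the brightest of the 59 genes. Its lowest, median and highest intensities were 117, 128 and 155 in CA MCT, 121, 134 and 147 in CA CON, 109, 126 and 166 in SA MCT, and 109, 134 and 141 in SA CON. The 4 groups overlapped almost completely. KCNK1, a weak leak channel of epithelia, had a mean of 107.6 and a range of 88.7 to 155. KCNK5, an acid sensitive leak channel of epithelia, had a mean of 43.3 and a range of 27.9 (pig 20) to 65.5 (pig 2).

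The 8 inward rectifiers (KCNJ2, KCNJ3, KCNJ4, KCNJ6, KCNJ8, KCNJ9, KCNJ11 and KCNJ14) conduct more readily into the cell than out of it, and their median was 17.3. KCNJ3, a subunit of channels gated by G proteins, had a mean of 82.1 and ranged from 30.1 in pig 4 to 111 in pig 21. KCNJ8, the vascular pore of ATP sensitive channels, had a mean of 76.1. Within groups, its lowest, median and highest intensities were 56.6, 73.1 and 91.5 in CA MCT, 67.5, 75.4 and 103 in CA CON, 72.4, 77.9 and 87.0 in SA MCT, and 65.9, 74.7 and 77.0 in SA CON. KCNJ11, the ATP sensitive pore of endocrine cells and muscle, was dimmer, with a mean of 20.3.

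The 13 auxiliary subunits (KCNAB2, KCNAB3, KCNE1, KCNE3, KCNE4, KCNE5, KCNIP1, KCNIP2, KCNIP3, KCNMB1, KCNMB2, KCNMB4 and KCNRG) had a median of 13.5. KCNE3, a small membrane subunit that keeps KCNQ1 open in epithelia, had a mean of 109.6. KCNE1, the KCNE subunit that forms the slow cardiac current with KCNQ1, had a mean of 95.6. Its lowest, median and highest values were 87.6, 101 and 122 in CA MCT, 71.3, 83.4 and 145 in CA CON, 62.3, 82.9 and 95.5 in SA MCT, and 42.5, 106 and 145 in SA CON. Both ends of its range lay within the SA CON group, in pig 18 and pig 17. KCNMB1, the beta subunit by which smooth muscle tunes its BK channel to calcium, had a mean of 47.6. As a comparison, the 3 epithelial channel genes that were set apart had means of 527 (KCNE2), 680 (KCNJ15) and 190.4 (KCNJ13).

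The potassium channel genes varied somewhat more between piglets of a group than genes on the whole did. Their median within-group SD was 0.25 on the log2 scale, as compared to 0.20 for all genes, and 41 of the 59 had an SD above the median of all genes. No test was made of this. The highest within-group SDs were those of KCNMB1 (0.57), KCNMA1 (0.54), KCNS3 (0.47), KCNN4 (0.43) and KCNE5 (0.42). In CA CON, the group of pig 4, the SDs of these genes were 0.45, 0.40, 0.61, 0.55 and 0.70. The highest SDs in any other group were 0.73, 0.73, 0.58, 0.42 and 0.37, in the same order. The part of pig 4, whose array stood apart, in the SDs of the 59 genes was not tested.

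KCNMA1 and KCNMB1, the pore and the beta subunit of the BK channel, varied together. KCNMB1 had its highest values in pig 14 (118, SA CON) and pig 7 (89.7, CA MCT), and KCNMA1 in the same piglets (181 and 174). Their log2 values had r = 0.91 and rho = 0.84 over the 24 piglets (permutation test, adjusted p = 2.67e-05 for r and 5.33e-05 for rho over 8 relations), r was 0.83 without pigs 7 and 14, and within the 4 groups it was 0.80 to 0.96. This relation, together with the other relations between a channel gene and its partner gene, was added after the values had been seen.

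Both genes also followed the markers of smooth muscle, of which 5 of 10 were measured (CNN1, ACTA2, TAGLN, SMTN and a dim MYLK). For KCNMB1 and the mean log2 value of these markers, r was 0.87 and rho 0.78 (adjusted p = 2.67e-05 and 5.33e-05), with 0.71 to 0.98 within groups and 0.73 without pigs 7 and 14. For KCNMA1, r was 0.82 and rho 0.78 with the same adjusted p-values, with 0.81 to 0.92 within groups and 0.67 without these piglets. The unadjusted p of 1e-05 behind these values of r is the smallest that the 100000 permutations can give. The summed intensity of the smooth muscle markers was 2988 to 4960 (median 3398) in CA MCT, 2936 to 3864 (3316) in CA CON, 2853 to 4435 (3633) in SA MCT and 2802 to 5514 (3340) in SA CON, and its highest value was that of pig 14. The groups thus overlapped in their smooth muscle signal as they did in the 2 BK genes. Lowest, median and highest KCNMB1 intensities were 20.8, 41.4 and 89.7 in CA MCT, 27.1, 39.1 and 67.5 in CA CON, 36.1, 48.9 and 67.3 in SA MCT, and 28.9, 40.5 and 118 in SA CON.

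**Figure D2:**
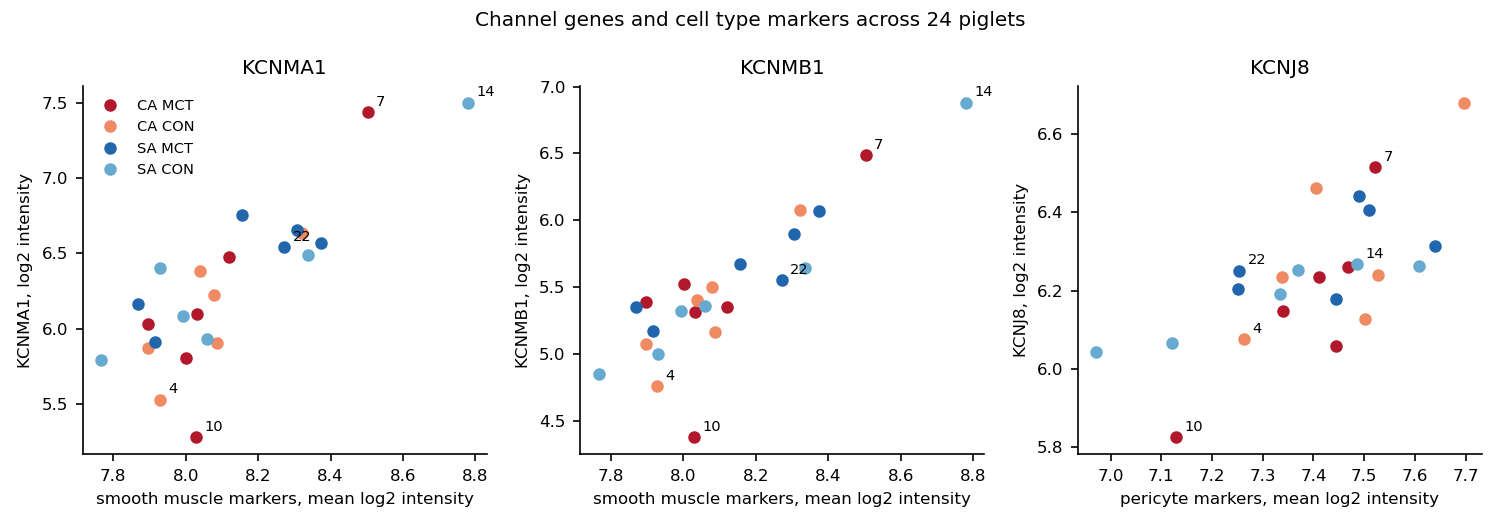
Log2 intensity of KCNMA1, KCNMB1 and KCNJ8 (vertical axes) against the mean log2 intensity of smooth muscle markers (KCNMA1, KCNMB1) or pericyte markers (KCNJ8) (horizontal axes); 1 point per piglet, coloured by group. The points rise together with r of 0.82, 0.87 and 0.69 over 24 piglets, and pigs 7 and 14 lie at the upper end for KCNMA1 and KCNMB1.

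KCNJ8 went with the markers of pericytes, the contractile cells around small vessels, of which 4 of 6 were measured (PDGFRB, RGS5, CSPG4 and MCAM). Here r was 0.69 and rho 0.69 (permutation test, adjusted p = 0.00048 and 0.000496), with 0.67 without pigs 15 and 18 and 0.53 to 0.95 within groups. Its partner ABCC9, the sulfonylurea receptor that surrounds the vascular pore, had r = 0.68 and rho = 0.75 with KCNJ8 (adjusted p = 0.000656 and 0.0001), and r was 0.77 without pigs 18 and 22. The pericyte markers summed to 724 to 966 in CA MCT, 800 to 995 in CA CON, 773 to 1003 in SA MCT and 633 to 991 in SA CON, again with overlap of all groups.

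The other channel genes tied to a cell type gave weaker relations. KCNA3, the voltage gated pore that is typical of T lymphocytes, had r = 0.42 and rho = 0.42 with the mean of 9 measured of 10 T cell markers (permutation test, adjusted p = 0.0514 and 0.0544). This r was 0.27 without pigs 10 and 12, and -0.08 to 0.80 within groups. KCNJ11 had r = 0.23 and rho = 0.17 with the mean of 8 measured of 9 endocrine cell markers (adjusted p = 0.278 and 0.421), and r was 0.11 without pigs 5 and 10. With ABCC8, the receptor subunit of the endocrine ATP sensitive channel, it had r = 0.29 and rho = 0.21 (adjusted p = 0.185 and 0.364), and r was 0.13 without pigs 4 and 10. None of the last 3 relations passed the threshold.

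Single arrays set many of the extreme values. Pigs 4, 10 and 22 held the highest value of 22 of the 59 genes (37.3%, as compared to 34% of all genes) and the lowest value of 29 (49.2% and 45.9%). Pig 4 alone held the highest value of 15 genes (25.4%), all of them below the median intensity of all genes. It also held the highest value of 18.9% of all genes (2058), 1926 of them below that median. An example is KCNRG, a soluble regulator of voltage gated channels, with 21.6 in pig 4 and a mean of 7.92. Pig 4 had the lowest value of 9 of the 59 genes (15.3%), as compared to 25.5% of all genes, and 1985 of those 2773 were above the median. Among the 9 were KCNJ3 (30.1, mean 82.1) and KCNS3 (18.4, mean 39.98). Only these 2 of the 9 were above the median intensity of all genes.

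**Figure D3:**
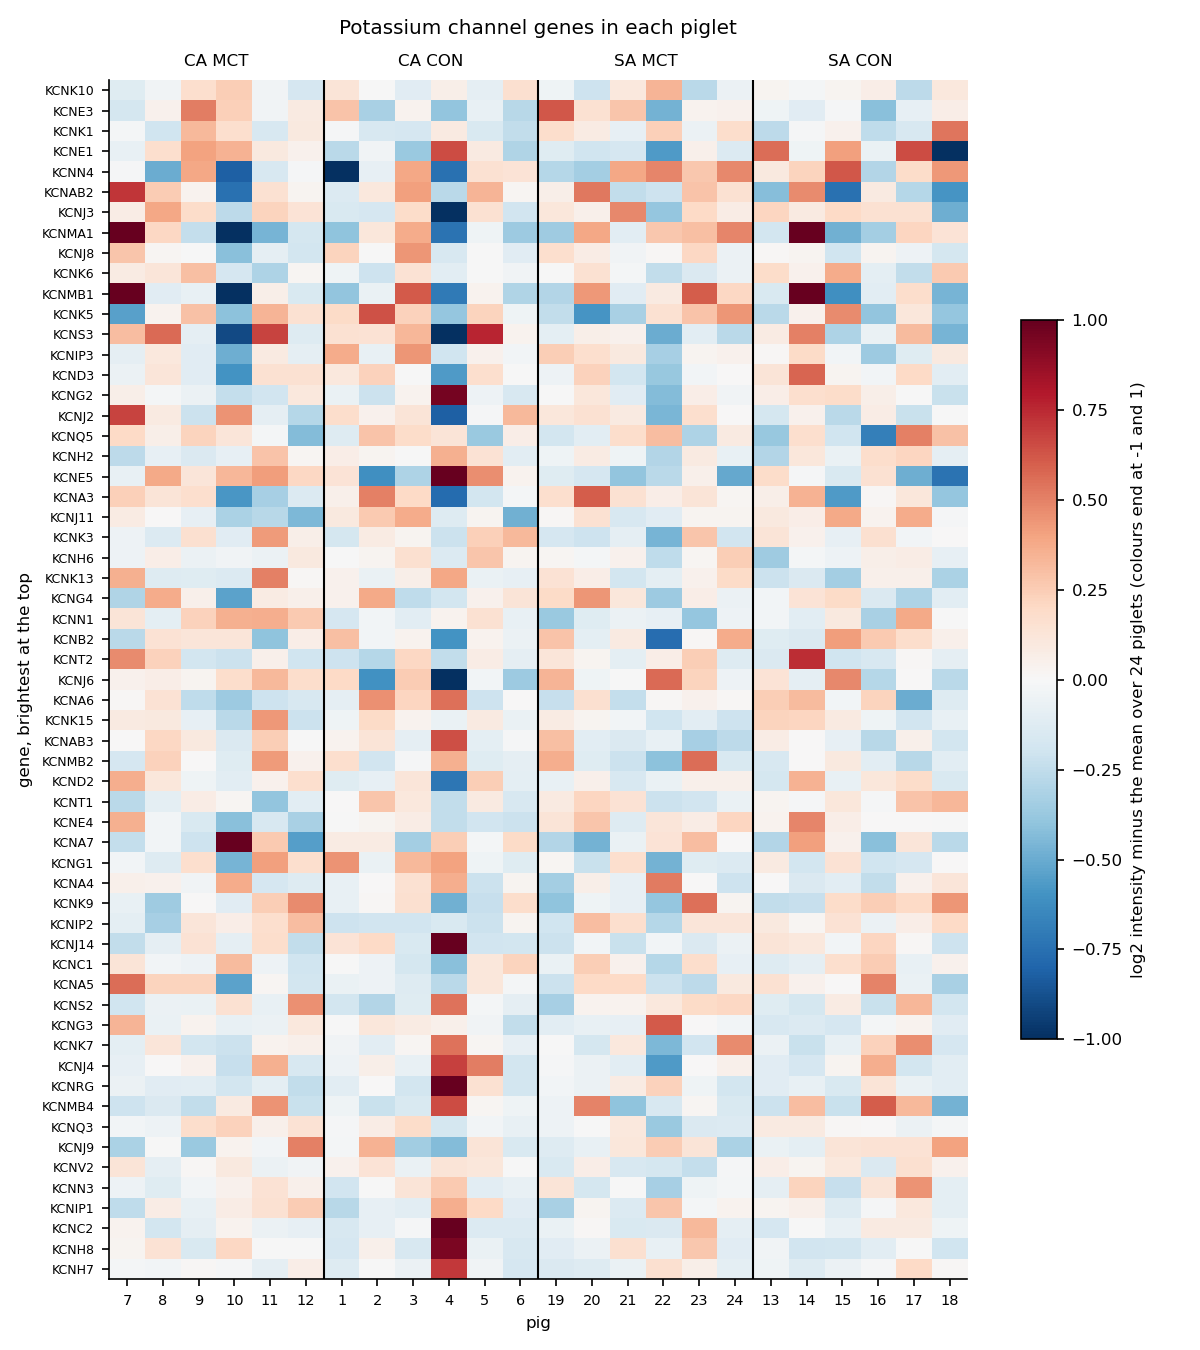
Deviation of each of the 59 potassium channel genes (rows, brightest at the top) from its mean over 24 piglets, in log2 units, in each piglet (columns, by group); the colours end at -1 and 1. The column of pig 4 (CA CON) holds the highest value of 15 genes and the lowest of 9, and KCNMA1 and KCNMB1 share their bright cells in pigs 7 and 14.

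The main question of the design was whether the microbiota given after birth changed the mucosa. No potassium channel gene was called in CA as compared to SA piglets over both diets, and neither was any other gene (limma, adjusted p under 0.05: 0 of 59, and 0% of 10882). The lowest adjusted p among the 59 was 0.943. At an unadjusted p under 0.05 there were 5 of the 59 genes (8.47%), 3 higher and 2 lower, with 4.14% of all genes at that level. The median log2 difference was 0.027 over the 59 genes and -0.0010 over all genes, and single values ran from -0.38 to 0.41. By family, the median was 0.039 for the voltage gated families (16 of 23 positive), 0.033 for the auxiliary subunits, 0.033 for the 2-pore channels, -0.05 for the inward rectifiers and -0.09 for the calcium or sodium activated channels (4 of 6 negative).

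KCNE5, an inhibitory subunit of KCNQ1, had a lowest, median and highest intensity of 14.2, 24.4 and 57.1 in the 12 CA piglets, and of 13.0, 19.4 and 24.6 in the 12 SA piglets. The groups overlapped, with 6 CA piglets above the highest SA piglet. The log2 difference was 0.41 ± 0.16 (SE; limma, unadjusted p = 0.0147, adjusted p = 0.943), and it was 0.28 without pigs 4, 10 and 22 and 0.27 with arrays weighted by their quality. KCNE4, which inhibits KCNQ1 and KCNA3 type pores, had 7.81, 9.35 and 13.3 in CA and 9.51, 10.9 and 14.6 in SA piglets, a difference of -0.21 ± 0.078 (unadjusted p = 0.0117). Here 7 of the 12 CA piglets lay below the lowest SA piglet, and the mean of this gene was below the lower quartile of all genes.

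KCNN4 had 44.8, 86.6 and 117 in CA piglets, as compared to 70.6, 106 and 137 in SA piglets, and 4 CA piglets lay below the lowest SA piglet. Its log2 difference was -0.38 ± 0.16 (unadjusted p = 0.0268). Without pigs 4, 10 and 22 it was -0.23 (unadjusted p = 0.161). T cells also use this channel, and the summed T cell markers had medians of 243 in CA MCT, 252 in CA CON, 274 in SA MCT and 235 in SA CON, and their part in the result was not tested. For KCNN1, the range was 13.7 to 19.8 (median 16.3) in CA and 11.8 to 20.0 (14.6) in SA piglets, a difference of 0.18 ± 0.072 (unadjusted p = 0.0216). KCNAB3, a cytoplasmic beta subunit, had 12.1, 13.6 and 20.9 in CA and 10.6, 12.5 and 16.5 in SA piglets, a difference of 0.17 ± 0.082 (unadjusted p = 0.0484) that was 0.11 with array weights (unadjusted p = 0.111). Its highest value was that of pig 4.

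**Figure D4:**
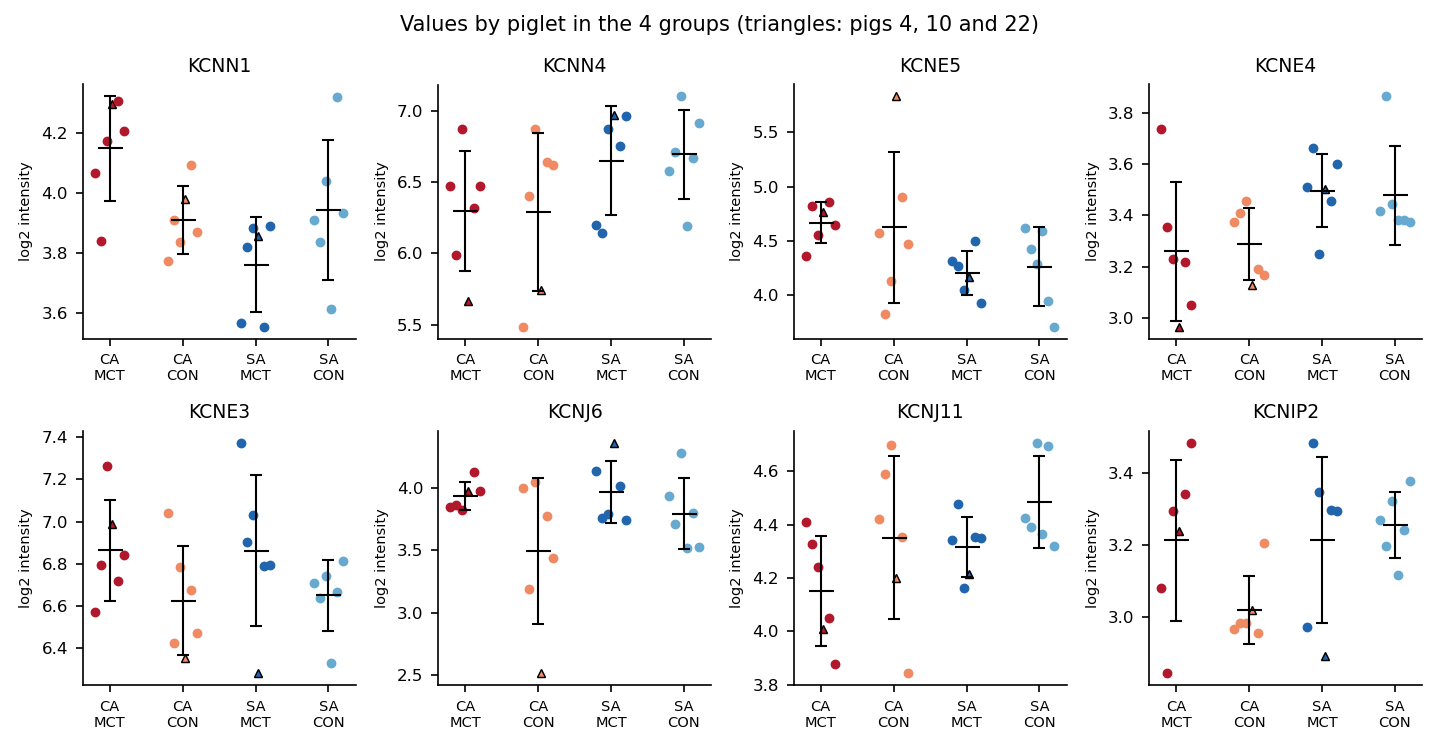
Log2 intensity of KCNN1, KCNN4, KCNE5, KCNE4, KCNE3, KCNJ6, KCNJ11 and KCNIP2 in CA MCT, CA CON, SA MCT and SA CON piglets; points are piglets (6 per group), bars the mean and SD of the group, and triangles pigs 4, 10 and 22. The groups overlap in each comparison of all 8 genes. KCNJ6 has its lowest value (an intensity of 5.71) and KCNE5 its highest (an intensity of 57.1) in pig 4 of the CA CON group.

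Within the CON diet, CA as compared to SA gave no call (0 of 59 and 0%, lowest adjusted p among the 59 of 0.943) and 1 gene at an unadjusted p under 0.05 (1.69%, as compared to 4.25% of all genes). This was KCNIP2, the cytoplasmic partner of the KCND pores. It had 7.76, 7.91 and 9.22 in CA CON piglets and 8.68, 9.55 and 10.4 in SA CON piglets, with 5 of 6 CA CON piglets below the lowest SA CON piglet. The difference was -0.23 ± 0.10 (unadjusted p = 0.0287). The mean of KCNIP2 was 9.10, below the lower quartile of all genes. The median over the 59 genes was 0.022, as compared to -0.00036 over all genes.

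Within the MCT diet, no gene was called either (0 of 59 and 0%, lowest adjusted p 0.9998), and 4 of the 59 had an unadjusted p under 0.05 (6.78%, as compared to 2.66% of all genes), 3 higher and 1 lower. The median was 0.013 over the 59 genes and -0.0046 over all genes. KCNN1 had the lowest p-value of all comparisons of the 59 genes. Its intensity was 14.3, 18.2 and 19.8 in CA MCT and 11.8, 14.3 and 14.8 in SA MCT piglets, so that 5 of 6 CA MCT piglets lay above the highest SA MCT piglet. The group means were 4.15 ± 0.17 in CA MCT and 3.76 ± 0.16 in SA MCT on the log2 scale (SD, n = 6 each). The difference was 0.39 ± 0.10 (SE, unadjusted p = 0.000876, adjusted p = 0.9998).

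KCNE5 in the same comparison had 20.5, 26.1 and 28.9 in CA MCT and 15.2, 18.6 and 22.5 in SA MCT piglets, a difference of 0.47 ± 0.22 (unadjusted p = 0.0471), with 5 of 6 CA MCT piglets above the highest SA MCT piglet. The unadjusted p of this KCNE5 difference was under 0.05 in 16 of 31 alternatives of the processing, and was 0.095 without pig 24. These alternatives include leaving out a CON piglet, which cannot change this difference. KCNQ3, a voltage gated pore of neurons, had 7.09, 7.86 and 8.61 in CA MCT and 5.69, 6.89 and 7.89 in SA MCT piglets, a difference of 0.19 ± 0.078 (unadjusted p = 0.0233). It was 0.11 without pigs 4, 10 and 22 and 0.11 with array weights. The mean of KCNQ3 was 7.38, below the lower quartile of all genes. KCNE4 had 7.81, 9.35 and 13.3 in CA MCT and 9.51, 11.4 and 12.7 in SA MCT piglets, a difference of -0.24 ± 0.11 (unadjusted p = 0.0429) that was -0.15 with array weights. The MCT groups overlapped in each of these genes.

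For the diet, MCT as compared to CON over both associations gave no call (0 of 59 and 0%, lowest adjusted p 0.9999), and 4 of the 59 had an unadjusted p under 0.05 (6.78%, as compared to 2.34% of all genes), 2 in each direction. The median log2 difference was -0.013 over the 59 genes and 0.0018 over all genes, and single values ran from -0.18 to 0.31. KCNE3 had 77.8, 113 and 166 in the 12 MCT piglets and 80.6, 102 and 132 in the 12 CON piglets, a difference of 0.22 ± 0.10 (unadjusted p = 0.0383). In this gene 10 of 12 MCT piglets lay above the median of the CON piglets, and 2 above their highest.

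KCNJ6, a subunit of the G protein gated channels of neurons, had 13.4, 15.2 and 20.6 in MCT and 5.71, 13.4 and 19.4 in CON piglets, a difference of 0.31 ± 0.13 (unadjusted p = 0.0302). The low end of the CON piglets was pig 4. The difference was 0.17 without pigs 4, 10 and 22 (unadjusted p = 0.127) and 0.14 with array weights (unadjusted p = 0.184). The enteric neuron markers, of which 5 of 9 were measured (UCHL1, STMN2, PRPH, RET and CHAT), had positive differences in 3 of 5 on MCT as compared to CON over both associations (median log2 difference 0.10) and in 3 of 5 within CA piglets (0.25), with none called. At an unadjusted p under 0.05 (limma) was 1 marker over both associations, lower on MCT, and 1 within CA piglets, higher on MCT. Their summed intensity was 124 to 198 (median 151) in CA MCT, 90.1 to 203 (118) in CA CON, 104 to 226 (171) in SA MCT and 104 to 187 (159) in SA CON, and the lowest piglet was pig 4. Their part in the KCNJ6 values was not tested. KCNJ11 had 14.7, 19.5 and 22.3 in MCT and 14.3, 21.2 and 26.1 in CON piglets, a difference of -0.18 ± 0.084 (unadjusted p = 0.0393), with no MCT piglet outside the range of the CON piglets. KCNV2, a silent subunit of KCNB type pores, had 6.08, 6.95 and 7.83 in MCT and 6.49, 7.45 and 8.01 in CON piglets, a difference of -0.10 ± 0.048 (unadjusted p = 0.0453). The mean of KCNV2 was 7.19, below the lower quartile of all genes.

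When MCT was compared to CON within CA piglets, there was no call (0 of 59 and 0%, lowest adjusted p 0.9990), and 3 of the 59 had an unadjusted p under 0.05 (5.08%, as compared to 3% of all genes), 2 higher and 1 lower. KCNJ6 had 14.2, 15.2 and 17.5 in CA MCT and 5.71, 12.3 and 16.6 in CA CON piglets, a difference of 0.44 ± 0.19 (unadjusted p = 0.0282) that was 0.25 without pig 4 (unadjusted p = 0.115), 0.24 without pigs 4, 10 and 22 and 0.20 with array weights. KCNN1 had 14.3, 18.2 and 19.8 in CA MCT and 13.7, 14.8 and 17.1 in CA CON piglets, a difference of 0.24 ± 0.10 (unadjusted p = 0.0285). KCNA6, a voltage gated pore of nerve, had 10.8, 12.2 and 15.3 in CA MCT and 12.0, 15.0 and 20.3 in CA CON piglets, a difference of -0.29 ± 0.14 (unadjusted p = 0.0446). It was -0.16 without pigs 4, 10 and 22 and -0.11 with array weights. Its highest value was that of pig 4.

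Within SA piglets, MCT as compared to CON gave no call (0 of 59 and 0%, lowest adjusted p 0.9997) and 1 gene at an unadjusted p under 0.05 (1.69%, as compared to 2.04% of all genes). KCNV2 had 6.08, 6.45 and 7.52 in SA MCT and 6.49, 7.45 and 8.01 in SA CON piglets, a difference of -0.15 ± 0.068 (unadjusted p = 0.0330). The comparisons of this design share groups, so that KCNV2 within SA piglets and over both associations, and KCNN1 on MCT, over both diets and within CA piglets, are no separate support for each other.

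The interaction asked whether CA as compared to SA differed between the diets, and was the difference on MCT minus that on CON. No gene was called (0 of 59 and 0%, lowest adjusted p 0.9999), and 1 of the 59, KCNN1, had an unadjusted p under 0.05 (1.69%, as compared to 2.53% of all genes). Its interaction was 0.42 ± 0.14 (SE, unadjusted p = 0.00776). The group means behind it were 4.15 ± 0.17 in CA MCT, 3.91 ± 0.11 in CA CON, 3.76 ± 0.16 in SA MCT and 3.94 ± 0.23 in SA CON (log2, SD, n = 6 each). CA MCT piglets thus had the highest mean of this dim gene and SA MCT piglets the lowest.

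**Figure D5:**
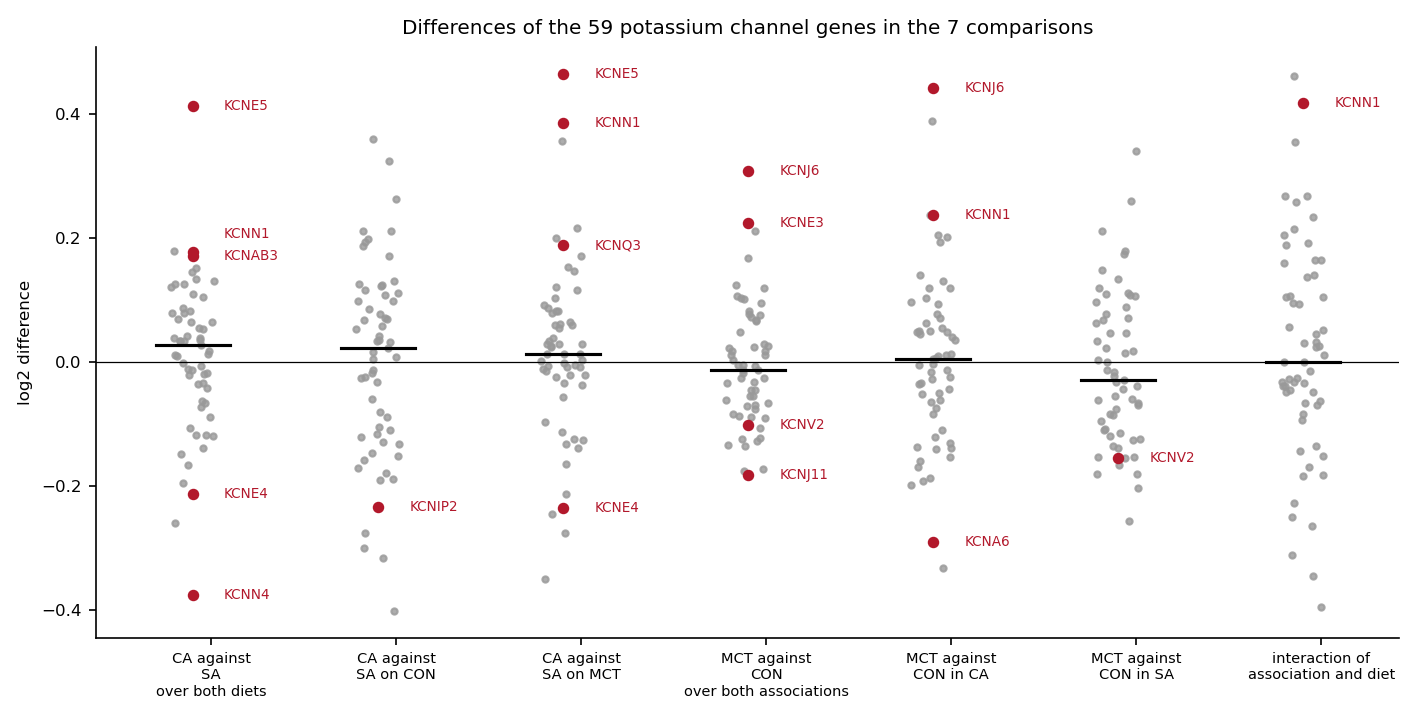
Log2 differences of the 59 potassium channel genes in the 7 comparisons; 1 point per gene, black bars are the medians of the 59 genes, and red points are the genes with an unadjusted p under 0.05 that are described with values. The medians lie between -0.030 and 0.027, and no gene passed an adjusted p of 0.05 in any comparison.

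The precision bounds differences in array signal only. How many of the dim genes were detected is not known, so the intervals do not bound differences in RNA that could have been missed. The 95% interval of the difference lay within 0.5 log2 units on either side of 0 in 55 of the 59 genes for CA as compared to SA over both diets and in 57 for MCT as compared to CON over both associations. It did so in 46 genes for CA as compared to SA on CON, in 49 on MCT, in 48 for MCT as compared to CON in CA piglets and in 49 in SA piglets, but in only 27 for the interaction. The SE of the comparisons over 12 against 12 piglets had a median of 0.10, and that of 6 against 6 a median of 0.14. In no comparison of groups did any of the 59 genes separate the groups without overlap. At most 21 of all 10882 genes did so (CA as compared to SA on MCT), and none did in the comparisons of 12 against 12. With so few among all genes, none among 59 says little about the potassium channel genes.

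The partners of these channels gave a like picture. Of 18 genes of parietal ion transport, 12 were measured, and of 19 genes of proteins that bind or accompany potassium channels, 10 were measured, and none of them was called in any comparison. At an unadjusted p under 0.05 were NCS1, a calcium sensor that binds KCND channels (CA as compared to SA over both diets, -0.22), HCN2, a hyperpolarization activated cation channel (CA as compared to SA on CON, -0.30, and MCT as compared to CON in CA, 0.28), and KCNJ15, the inward rectifier of the parietal cell (CA as compared to SA on CON, 0.26). These were 1 of 10 channel partners over both diets (10%, as compared to 4.14% of all genes). On CON they were 1 of 10 channel partners (10%) and 1 of 12 transport genes (8.33%), as compared to 4.25%. For MCT as compared to CON in CA they were 1 of 10 (10%, as compared to 3%), and the other comparisons held none. The KCNJ15 difference was 0.12 without pig 18 of the SA CON group (unadjusted p = 0.165). Without pigs 4, 10 and 22, the HCN2 difference on CON was -0.22 (limma, unadjusted p = 0.0983). The HCN2 difference in CA was then 0.19 (unadjusted p = 0.168), and that of NCS1 was -0.17 (unadjusted p = 0.0619). KCNJ15 had 0.27 without the same piglets (unadjusted p = 0.0419). The comparisons on CON and in CA were also fitted to their own arrays only (limma). The unadjusted p was then 0.0594 for HCN2 on CON, 0.0806 for HCN2 in CA and 0.0947 for KCNJ15 on CON. The summed intensity of the 12 transport genes had medians of 11897 in CA MCT, 11754 in CA CON, 11649 in SA MCT and 11829 in SA CON. The lowest sum of all piglets was 9562 in pig 18.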

How the data were processed

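RNA of the oxyntic mucosa was hybridized to 24 arrays, 1 per piglet. The deposited intensity values had been made by the authors with Robust Multichip Analysis (background correction, quantile normalization and summary of the probes). A log2 scale had been assumed in the design, but the values were linear, so their log2 was taken. The software version is not given in the sources used here. Of 27558 clusters, 11939 had 1 symbol and gave 10882 genes, with the brightest cluster kept for 958 symbols with several. No filter on dim values was applied, so all 59 members were tested. KCNK5, KCNN4, KCNQ5, KCNAB3 and KCNS2 had 2 clusters. Those of KCNAB3 and of KCNS2 held identical values, so they were no second measurement. Between the 2 clusters, r was 0.65 for KCNK5, 0.77 for KCNN4 and 0.37 for KCNQ5.

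The 4 group means were fitted to all arrays with limma 3.58.1 in R 4.3.3 (20 residual degrees of freedom, no covariate), with 7 comparisons and Benjamini-Hochberg adjustment over all genes. Piglets were taken as independent, and p-values measure the spread between them. Correlations over piglets had two-sided tests with 100000 permutations, adjusted over 8 relations.

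Genes were named if called, if at an unadjusted p under 0.05 with the up to 3 highest or lowest statistics of a comparison, if among the 5 brightest or the 5 most variable, or for a known role in acid secretion or a cell type of the stomach wall. Genes named beyond this (KCNH7, KCNJ3, KCNRG, the means of the other KCNN and KCNT genes) were chosen after their values were seen. The members, lists and rules were chosen with earlier results of these data known. Alternatives were the mean of all clusters of a symbol, the dimmest 40% left out, array weights, renewed quantile normalization, an intensity trend, own arrays of a comparison, and leaving out piglets. The fit was also run on simulated data with independent normal noise. These data held no deviating arrays and no litters, so they do not show how the fit behaves with either.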

Additional observations from a re-analysis of the deposited data

Results flagged for a closer look

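In 6 of 88 sets of 6 piglets (a named gene in a group), 1 piglet stood far from the others of its group by Dixon's test, of which chance alone gives about 5%. KCNAB3 was 20.9 in pig 4 of the CA CON group, and the next was 14.6. KCNIP2 was 9.22 in pig 6 of the same group, and the next was 8.11. KCNA3 was 31.4 in pig 20 of the SA MCT group, and the next was 23.2. In SA CON, KCNE4 was 14.6 in pig 14 (next 10.9), KCNE3 was 80.6 in pig 16 (next 99.6) and KCNK10 was 109.2 in pig 17 (next 128.9). Pig 14 was also the piglet with the highest smooth muscle signal, KCNMA1 and KCNMB1, and the part of that signal in its KCNE4 value was not tested. None of these genes was called in any comparison.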

How the results depend on the processing

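No potassium channel gene was called under any alternative or with any piglet left out, and no difference of a named gene turned its sign. The count at an unadjusted p under 0.05 was unstable: over the alternatives that kept all 59 genes it was 3 to 6 for CA as compared to SA over both diets (5 in the report), 0 to 3 on CON (1), 1 to 5 on MCT (4), 0 to 5 for MCT as compared to CON over both associations (4), 0 to 7 in CA (3), 0 to 3 in SA (1) and 1 to 3 for the interaction (1). With the dimmest 40% of clusters left out, 26 of the 59 genes remained, and the counts were 2, 0, 1, 2, 0, 0 and 0 in the same order. Leaving out pig 1, 4 or 15 gave 3 genes for CA as compared to SA over both diets, and leaving out pig 2 gave 0, pig 21 or 22 gave 1 and pig 1, 10, 11, 12, 15, 16 or 19 gave 2 for MCT as compared to CON over both associations. The count also moved by over 1.5 times without pig 1, 2, 3, 5, 14, 15, 16 or 18 for CA as compared to SA on CON, 9, 10, 11, 12, 22 or 24 on MCT, 2, 4, 5, 6 or 11 for MCT as compared to CON in CA, 13 to 19 or 21 in SA, and 3, 4, 7, 8, 18 or 21 for the interaction. KCNN1 kept its unadjusted p under 0.05 in all 30 alternatives that held it for CA as compared to SA on MCT, and in all 29 for the interaction. For CA as compared to SA over both diets, KCNE4 did so in all 29 and KCNE5 in all 30, but KCNAB3 in 10 of 29. On MCT, KCNE5 did so in 16 of 31 and KCNE4 in 17 of 30. For MCT as compared to CON over both associations, KCNE3 did so in 21 of 30, KCNJ11 in 18 of 30 and KCNV2 in 9 of 29. For a comparison on MCT alone, leaving out a CON piglet keeps the difference itself and changes its p only through the shared spread. The counts for KCNN1, KCNE5 and KCNE4 on MCT hold such alternatives, so they overstate how much was varied. KCNN1 was named for its low p in the same data. KCNN1, KCNE4, KCNAB3, KCNV2, KCNIP2, KCNQ3, KCNJ6 and KCNA6 were not among the 26 genes that remained with the dimmest 40% left out. For these genes, counts of alternatives do not include that one. The medians over the 59 genes were close to 0 and their signs were not stable, except for CA as compared to SA on MCT. That of MCT as compared to CON in SA was 0.04 with the dimmest 40% left out (-0.030 in the report). That of CA as compared to SA on CON (0.022) was -0.024 with array weights, -0.028 with renewed normalization, -0.0094 without pig 4 alone or pigs 4, 10 and 22, -0.0028 without pig 15 and -0.0047 without pig 18. That of CA as compared to SA over both diets (0.027) was -7.26e-05 with array weights and at least 0.00035 with 1 piglet left out, and that of MCT as compared to CON over both associations (-0.013) was 0.0046 with array weights and 0.0079 without pigs 4, 10 and 22. With 1 piglet left out, MCT as compared to CON in CA (0.0044) ran from -0.027 to 0.030, negative without pig 1, 4, 7, 8, 9 or 11, and the interaction from -0.025 to 0.028. Without pigs 4, 10 and 22, the r of KCNJ11 with the endocrine markers was -0.011, as compared to 0.23. The causes were not tested. No paired or blocked analysis was possible, because the labels tied no piglet to a litter, pen or sex. No signal over background was used here, so that how many of the dim genes were detected is not known.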
